A study of Mus musculus with 2 samples.

Results

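Among macrophages of the mouse sciatic nerve profiled by single-cell RNA sequencing, 307 of 5098 cells carried high levels of immediate-early and heat-shock RNA with little RNA for 4 inflammatory cytokines. A cell was counted among them if at least 2% of its UMIs (unique molecular identifiers, each marking 1 captured RNA molecule) fell on 14 genes and it had fewer than 3 UMIs over *Il1b*, *Cxcl2*, *Ccl3* and *Ccl4*. The 14 genes were the immediate-early genes *Fos*, *Fosb*, *Jun*, *Junb*, *Egr1*, *Atf3*, *Ier2*, *Dusp1* and *Zfp36* and the heat-shock genes *Hspa1a*, *Hspa1b*, *Dnajb1*, *Hsph1* and *Hsp90aa1*. They are called Fos/Jun-high cells below, and the 3912 cells with under 1% of their UMIs on the 14 genes served as the reference. The cells were thus chosen by the measured levels of these 18 genes, whose values are descriptions, and no difference from the reference was tested.

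Sciatic nerve macrophages (snMacs) were sorted as CD64+ CD45int cells from male Flt3-Cre LSL-YFP fl/fl mice aged 10 to 12 weeks. In these mice Cre is driven by *Flt3*, a gene of hematopoietic progenitors, and switches on YFP for good, so that YFP+ cells descend from cells that went through a Flt3-expressing stage and YFP- cells do not show that history. Nerves of 19 mice were pooled, the YFP- and YFP+ cells were each made into 1 library, and the nerves had been taken apart by enzyme digestion before the sort. With 1 library per origin, the intervals given here cover counting error only and no p-value can be had.

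Immediate-early genes are transcribed within minutes of a signal from factors that are already in the cell, and their transcripts are short-lived. Many encode transcription factors, such as the FOS and JUN proteins that pair to form AP-1, while others encode brakes on signalling, such as the phosphatase DUSP1 and the RNA-binding protein ZFP36. Heat-shock genes are switched on by heat-shock factor when unfolded protein accumulates, and they encode chaperones. In macrophages both groups respond to many kinds of stimulation and injury, and in tissues taken apart with warm enzymes they are well known to respond during the procedure.

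The stretches before the start sites of a few of these genes are shown, because *Hspa1a* and *Hspa1b* are near-identical copies and to show the motif matches described after them. Sequences are from RefSeq on GRCm38.p6, which is the build of the deposited counts, and are written 5′ to 3′ along the strand of the gene, with matches to a motif in capitals.
Hspa1a, chr17:34972157-34972306, minus strand: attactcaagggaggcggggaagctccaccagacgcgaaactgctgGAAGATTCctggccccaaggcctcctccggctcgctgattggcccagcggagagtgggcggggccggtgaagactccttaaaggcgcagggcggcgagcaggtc
Hspa1b, chr17:34959239-34959388, minus strand: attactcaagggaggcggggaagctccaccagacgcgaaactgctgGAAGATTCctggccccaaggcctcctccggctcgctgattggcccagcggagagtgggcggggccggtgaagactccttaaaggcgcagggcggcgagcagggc
Jun, chr4:95052317-95052376, minus strand: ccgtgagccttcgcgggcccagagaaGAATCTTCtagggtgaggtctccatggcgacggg
Dnaja1, chr4:40722318-40722377, plus strand: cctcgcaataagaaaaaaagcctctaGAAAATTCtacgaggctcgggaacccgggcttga
Dusp1, chr17:26508582-26508641, minus strand: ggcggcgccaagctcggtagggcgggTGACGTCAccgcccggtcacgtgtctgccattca
Ppp1r15a, chr7:45526269-45526328, minus strand: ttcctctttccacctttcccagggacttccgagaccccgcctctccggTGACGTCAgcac
Zfp36, chr7:28379253-28379312, minus strand: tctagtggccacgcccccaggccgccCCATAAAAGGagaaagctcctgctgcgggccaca

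Capitals mark a short heat-shock element (GAANNTTC or TTCNNGAA) in the first 4 stretches, a cyclic AMP response element (TGACGTCA) in *Dusp1* and *Ppp1r15a*, and a CArG box, the letters read by serum response factor, in *Zfp36*. Both strands of the 250 bases before each start site were searched, and 11 of the 14 genes of the rule had an entry. A short heat-shock element was found in 4 of the 11, *Hspa1a*, *Hspa1b*, *Hsph1* and *Jun*, and in 12.8% of all 32851 promoter windows of that length. TGACGTCA was found in 1 of the 11 and in 1.55% of all windows, the CArG box in 1 and in 1.47%, and an AP-1 site (TGACTCA or TGAGTCA) in 0 of the 11 and in 4.46%. A match is a description of the letters and not a measured binding site. The promoters of *Hspa1a* and *Hspa1b* matched at 149 of the 150 bases shown.

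*Hspa1a* (chr17:34969190-34972156) and *Hspa1b* (chr17:34956436-34959238), both on the minus strand, encode the inducible chaperone HSP70. Their annotated transcripts share long stretches, since 63.8% of all runs of 31 bases in *Hspa1a* also occur in *Hspa1b*. In the last 500 bases, where a 3′ library places most of its reads, 0 of 470 such runs are shared. How the counting treated reads that fit both copies was not tested, so the split between them is uncertain.

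Fos/Jun-high cells made up 4.78% of the 1045 cells of the YFP- library (50 cells, exact binomial 95% CI 3.57 to 6.26) and 6.34% of the 4053 cells of the YFP+ library (257 cells, CI 5.61 to 7.14). These intervals overlapped. The share moved with depth. After each cell was thinned to 500 UMIs, the share was 7.66% (CI 6.12 to 9.44) and 9.28% (CI 8.401 to 10.2). Thinning also took cells under the limit of 3 cytokine UMIs. Cells at 2% or more that reached this limit went from 27 to 14 in the YFP- and from 184 to 103 in the YFP+ library. Without the cytokine limit the share was 7.37% (CI 5.86 to 9.12) and 10.9% (CI 9.94 to 11.9), intervals that do not overlap, and 8.995% (CI 7.33 to 10.9) and 11.8% (CI 10.8 to 12.9) after thinning. The median depth of Fos/Jun-high cells was 1813 UMIs in the YFP- and 1374 in the YFP+ library, against 2182 and 1447 in the reference. At 500 UMIs they showed a median of 328.5 and 329 genes, against 338 and 329 in the reference, and their median share of mitochondrial UMIs was 1.11% and 1.02%. The libraries shared 7 cell barcodes, against 5.74 that random draws from the barcode list would give, and 1 of these was a Fos/Jun-high cell.

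The cells were macrophages by their markers, with a small exception. The 18 macrophage markers, among them *Csf1r*, *Adgre1* and the complement genes *C1qa*, *C1qb* and *C1qc*, took a median of 6.55% of the UMIs of YFP- Fos/Jun-high cells and 5.603% of those of YFP+ ones. The corresponding medians of the reference were 6.001% and 5.44%. *Csf1r*, the receptor for macrophage colony-stimulating factor, was at 939 CPM (a gene's UMIs summed over the cells of a class and scaled to a fixed UMI total) in YFP- Fos/Jun-high cells and 976 in their reference, and at 927 and 865 in the YFP+ library. All 18 markers passed 20 CPM, and 0 of them differed 2-fold from the reference in both libraries.

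The exception was 12 of the 307 cells, 2 in the YFP- and 10 in the YFP+ library, which had under 1% of their UMIs on the macrophage markers. That share, 3.91% (CI 2.04 to 6.73), compares with 0.971% (CI 0.688 to 1.33) of reference cells. Schwann cell genes led in 9 of the 12, fibroblast genes in 1 and mural genes in 1. *Pmp22*, a myelin gene, had 44 UMIs in the 2 YFP- cells and 29 in the other 48, and 289 in the 10 YFP+ cells and 110 in the other 247. *Csf1r* was at 1 and 0 UMIs in these cells. Where a gene named below moves by over 1.5 times without them, that value or the UMIs left are given too, a choice made after the data were seen.

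The summed Schwann cell markers, 6 genes whose most abundant member was *Pmp22*, were at 2348 CPM in YFP- Fos/Jun-high cells and 510 in the reference, and at 2445 and 508 in the YFP+ library. Without the 12 cells they came to 424 and 455. Free RNA, measured in barcodes with 10 to 100 UMIs, held 3225 and 5128 CPM of these genes. Markers of T cells, neutrophils, mast cells, dendritic cells and erythrocytes were each under 30 CPM in sum in both libraries. *Ighm* led the B cell markers, which summed to 347 and 327 CPM, against 383 and 389 in the reference. Fibroblast markers, led by *Dcn*, summed to 47.0 and 537 CPM, against 21.0 and 75.7, and to 48.2 and 86.5 without the 12 cells. Mural markers came to 37.6 and 65.9 CPM, against 6.31 and 179.9 in the reference, and to 9.64 and 15.3 without the 12 cells. Endothelial markers came to 47.0 and 34.2 CPM, against 87.7 and 59.3.

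**Figure D1:**
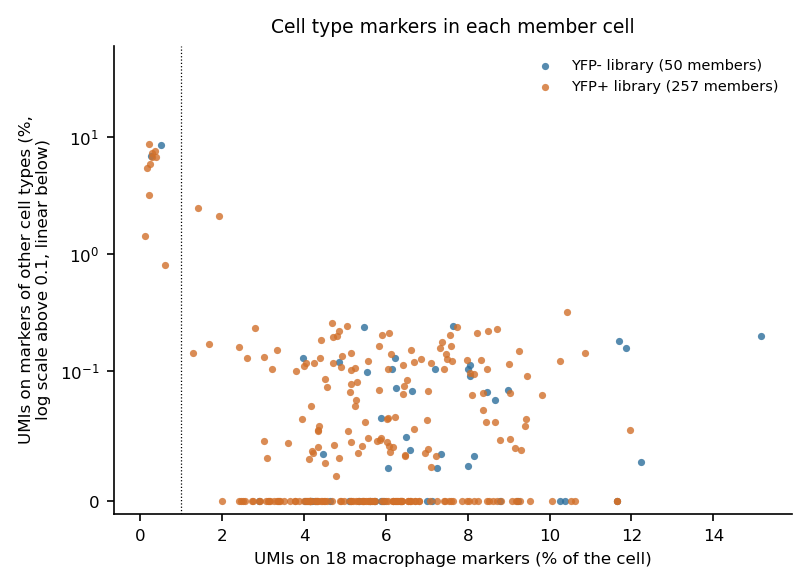
Share of UMIs on cell type markers, with 1 point per Fos/Jun-high cell. The x axis gives the 18 macrophage markers (percent). The y axis gives Schwann cell, fibroblast, mural and endothelial markers together (percent, logarithmic above 0.1 and linear below). Markers of the other cell types tested are not drawn. The dotted line marks 1% of macrophage UMIs, with 2 YFP- and 10 YFP+ cells to its left. Of these, the 9 led by Schwann cell genes lie at 3.16% or more on the y axis.

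The 14 genes together took 3.40% of all UMIs of YFP- and 3.02% of those of YFP+ Fos/Jun-high cells, against 0.330% and 0.340% in the reference. Free RNA stood between them, at 0.791% and 0.897%. *Fos*, a subunit of AP-1, was at 7137 CPM (Poisson 95% CI 6639 to 7663) in YFP- Fos/Jun-high cells and 691 in the reference, and at 6929 (CI 6676 to 7188) and 669 in the YFP+ library. *Jun*, its partner, was at 6470 and 5071 CPM, against 495 and 450. Free RNA held 1729 and 1961 CPM of *Fos* and 889 and 951 of *Jun*. A *Fos* UMI was seen in 98% and 97.7% of Fos/Jun-high and 51.6% and 44.6% of reference cells, and at 500 UMIs per cell in 90% and 94.6%, against 24.7% and 22.4%.

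Heat-shock RNA was less evenly spread. *Hspa1a* was at 4714 CPM in YFP- and 3934 in YFP+ Fos/Jun-high cells, against 92.0 and 179 in the reference, but no UMI of it was seen in 14 of 50 and 63 of 257 cells. *Hspa1b* was at 554 and 642 CPM, and *Dnajb1*, which encodes an HSP40 partner of HSP70, at 385 and 351. *Hsph1*, a nucleotide exchange factor of HSP70, was nearly absent, with 2 and 4 UMIs over all cells. *Atf3*, a stress-induced transcription factor, was at 592 and 603 CPM, and a UMI of it was found in 46% of the 50 and 42.4% of the 257 cells, against 7.31% and 5.52% of reference cells. At 500 UMIs per cell these shares were 20% and 18.7%, against 2.16% and 1.75%. Free RNA held 192 and 260 CPM of *Atf3*. *Il1b* and *Ccl4* had 0 UMIs in the 50 YFP- cells, and 2 and 19 in the 257 YFP+ cells. *Cxcl2* was at 56.3 and 43.9 CPM, against 77.2 and 73.5 in the reference. *Ccl3* was at 150 and 137 CPM, against 185 and 133. The reference had no cytokine limit, and 160 of its 3912 cells had 3 or more UMIs over these 4 genes. Among cells under that limit, the 4 genes summed to 98.1 CPM (YFP-) and 110 (YFP+) in cells under 0.5% on the 14 genes. At 0.5 to 1% they summed to 118 and 164, at 2 to 4% to 205 and 220, and at 4% or more to 216 and 300.

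**Figure D2:**
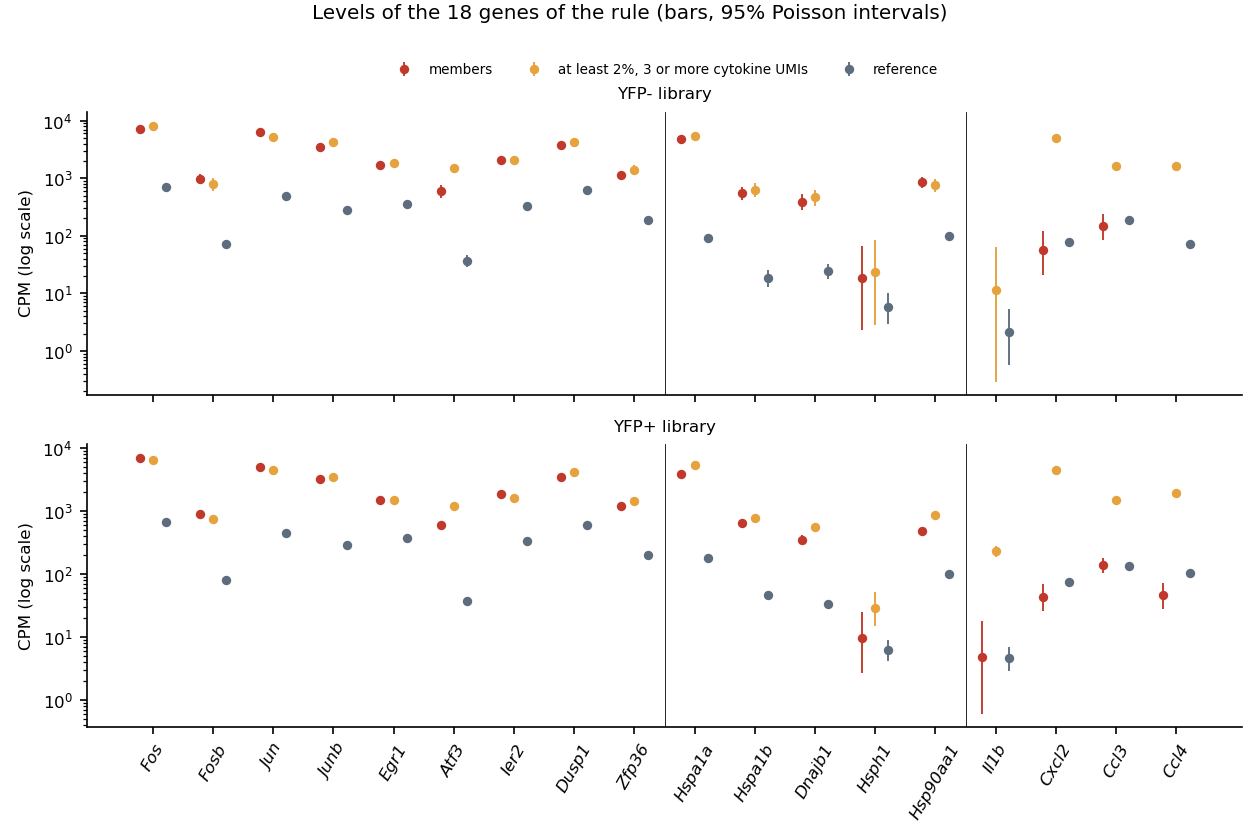
Level of each gene of the rule in CPM (y axis, logarithmic) in Fos/Jun-high cells (members), in cells with at least 2% of UMIs on the 14 genes and 3 or more cytokine UMIs, and in the reference, with exact Poisson 95% intervals as bars. Genes at 0 UMIs are not drawn. The immediate-early genes stand well above the reference in both libraries, with *Fos* at 7137 and 6929 CPM, and *Hsph1* is under 30 CPM in each group.

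Heat-shock RNA varied more between the cells than the label implies. All 307 had at least 1% of their UMIs on the 9 immediate-early genes, whereas 138 of 307 (45.0%, CI 39.3 to 50.7) also had at least 0.5% on the 5 heat-shock genes, 26 in the YFP- and 112 in the YFP+ library. No heat-shock UMI was seen in 53 cells, which were shallow, with a median of 1160 UMIs in the YFP- and 896 in the YFP+ library, against 2916 and 1463.5 in those with at least 0.5%. In 11 cells the heat-shock share exceeded the immediate-early share. The heat-shock share was continuous, with 51 cells between 0.4 and 0.6%. In the reference, 10 of 3912 cells had at least 0.5%. Over all called cells thinned to 500 UMIs, the 2 shares correlated with a Pearson r of 0.457 in the YFP- and 0.470 in the YFP+ library (Spearman rho 0.270 and 0.351; 1045 and 4053 cells that share a library, and genes that share each cell's depth).

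The values next to the threshold rest on few cells. In the YFP+ library, 20 cells lay just inside the limit (2 to 2.1% on the 14 genes) and 18 just outside (1.9 to 2%), with a median of 1.86% and 1.87% on the immediate-early genes. *Nfkbia*, which encodes the inhibitor of NF-kB, was at 889 CPM inside and 670 outside, *Klf6* at 1084 and 1575, and *Socs3* at 500.3 and 78.8. In the YFP- library 1 cell lay inside and 4 outside.

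**Figure D3:**
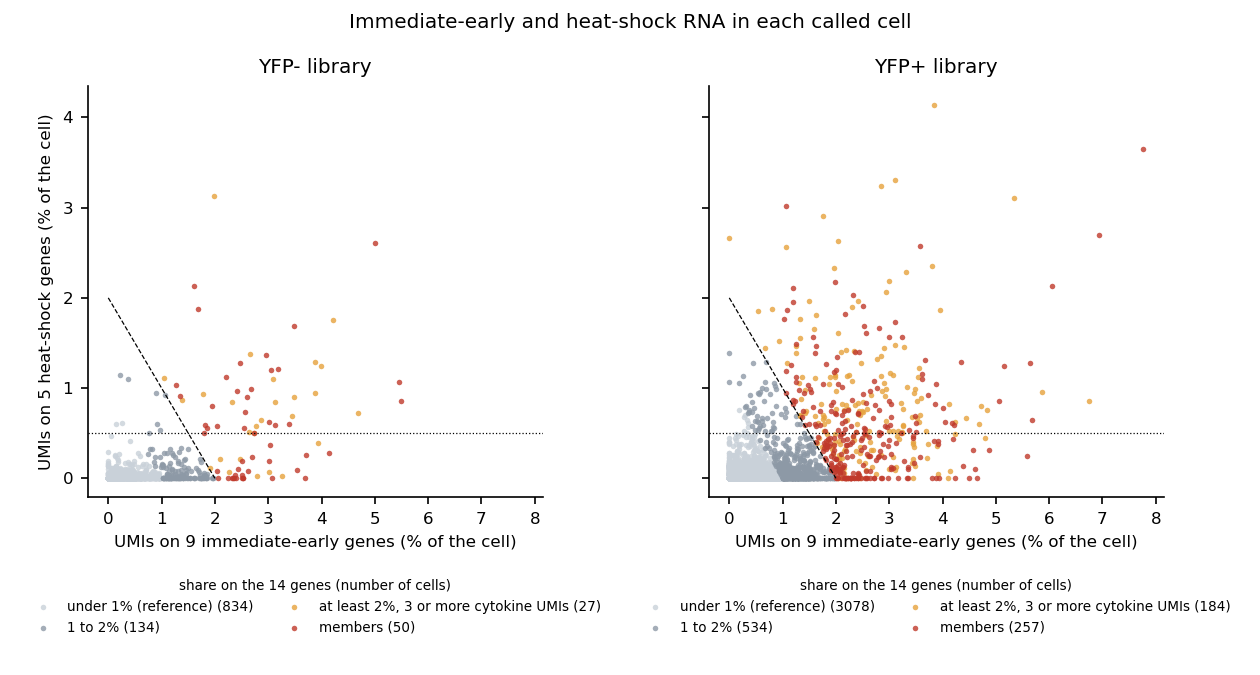
Share of UMIs on the 9 immediate-early genes (x axis, percent) and on the 5 heat-shock genes (y axis, percent) in each called cell of both libraries. The dashed line marks 2% over the 14 genes and the dotted line 0.5% on the heat-shock genes. Fos/Jun-high cells spread along the x axis from 1% upwards, and 145 of the 257 YFP+ cells lie under the dotted line.

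Genes outside the rule were compared in each library alone. Of 5525 genes at a mean of at least 20 CPM over Fos/Jun-high and reference cells, 83 (1.5%) were raised, meaning at least 2-fold higher in Fos/Jun-high cells in both libraries, and 19 (0.344%) were lowered. Without the cells low in macrophage RNA, 63 of 5480 (1.15%) were raised and 22 (0.401%) lowered, and 59 and 16 of these were among the calls on all cells. The intervals left out 0 in both libraries for 68 of the 83 raised and 6 of the 19 lowered genes. The raised calls had a median of 12 and 52 UMIs in the 2 libraries and the lowered calls 2 and 6, so that single lowered genes are poorly measured, and counting error alone can give a number of lowered calls of this order. Since the mean includes the Fos/Jun-high cells, a gene that is low in the reference could pass only where it was higher in them, and counts within a list are descriptions for this reason too.

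Other immediate-early genes were high in the same cells. Of 32 on the list, 20 passed 20 CPM, of which 14 were raised and 0 lowered, with a median log2 ratio of 2.13 against -0.07 over all genes tested. Of the 14, *Nr4a1*, *Egr2* and *Gadd45b* were under 20 CPM in the reference of both libraries and passed only through the Fos/Jun-high cells. *Nr4a1*, a nuclear receptor induced by many stimuli, was at 103 CPM in YFP- Fos/Jun-high cells and 6.31 in the reference (log2 ratio 3.84, CI 2.58 to 5.01), and at 164 and 5.81 in the YFP+ library (4.59). Its 11 UMIs in the YFP- library make that value the less exact. *Jund*, another AP-1 subunit, was at 4094 and 708 CPM in the YFP- and 2323 and 463 in the YFP+ library, a log2 ratio of 2.53 and 2.32. The order of the groups was the same in both libraries for each of these.

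Of 4 transcription factors of the Krüppel-like family on the list, *Klf2*, *Klf4* and *Klf6* were raised and *Klf10* was not. *Klf6* was at 1362 and 1298 CPM in YFP- and YFP+ Fos/Jun-high cells, against 303 and 324, *Klf2* at 1174 and 969, against 236 and 237, and *Klf4* at 620 and 525, against 128 and 155. *Klf10* was at 18.8 and 29.3 CPM, against 48.3 and 34.9 (-1.32 and -0.24), on 2 and 12 UMIs. *Btg2*, an antiproliferative gene, had a log2 ratio of 2.56 and 2.57. *Ier3*, *Egr2*, *Cyr61*, *Gadd45b*, *Rgs1*, *Ier5*, *Irf1* and *Mcl1* were also raised, the last of these encoding a survival factor of the BCL2 family. Of the list, *Rhob* (1.44 and 0.61) and *Btg1* (0.36 and 0.91) were also among those not raised.

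Of 19 feedback inhibitors, 9 passed 20 CPM, 5 of them raised and 0 lowered. Of the 5, *Socs3*, *Nfkbid* and *Tnfaip3* were under 20 CPM in the reference and passed only through the Fos/Jun-high cells. *Socs3*, which blocks cytokine receptor signalling, was at 254 CPM in YFP- Fos/Jun-high cells and 13.1 in the reference (log2 ratio 4.17, CI 3.36 to 4.97), and at 295 and 17.2 in the YFP+ library (4.02, CI 3.62 to 4.42). *Nfkbia* was at 1456 and 163 CPM in the YFP- and 1135 and 203 in the YFP+ library (3.15 and 2.47). *Nfkbiz*, *Nfkbid* and *Tnfaip3*, further regulators of NF-kB, were raised with ratios between 2.25 and 2.78 in either library. *Dusp6* (0.93 and 0.62) and *Zfp36l1* (0.35 and 0.26), relatives of the rule's *Dusp1* and *Zfp36*, stayed under 2-fold, and *Zfp36l2* lay at 0.08 and -0.05.

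*Ppp1r15a*, which encodes the phosphatase subunit GADD34 that ends the translation block of the integrated stress response, was at 272 and 308 CPM, against 27.3 and 24.2 (log2 ratio 3.27 and 3.61). On the list of endoplasmic reticulum stress, 13 of 17 genes passed 20 CPM, and *Ppp1r15a* was the 1 gene raised (median -0.02). The chaperone *Hspa5* (1.004 and 0.48), *Atf4* (-0.08 and 0.78) and *Ddit3* (-0.65 and 0.38, with 2 and 16 UMIs) were not.

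**Figure D4:**
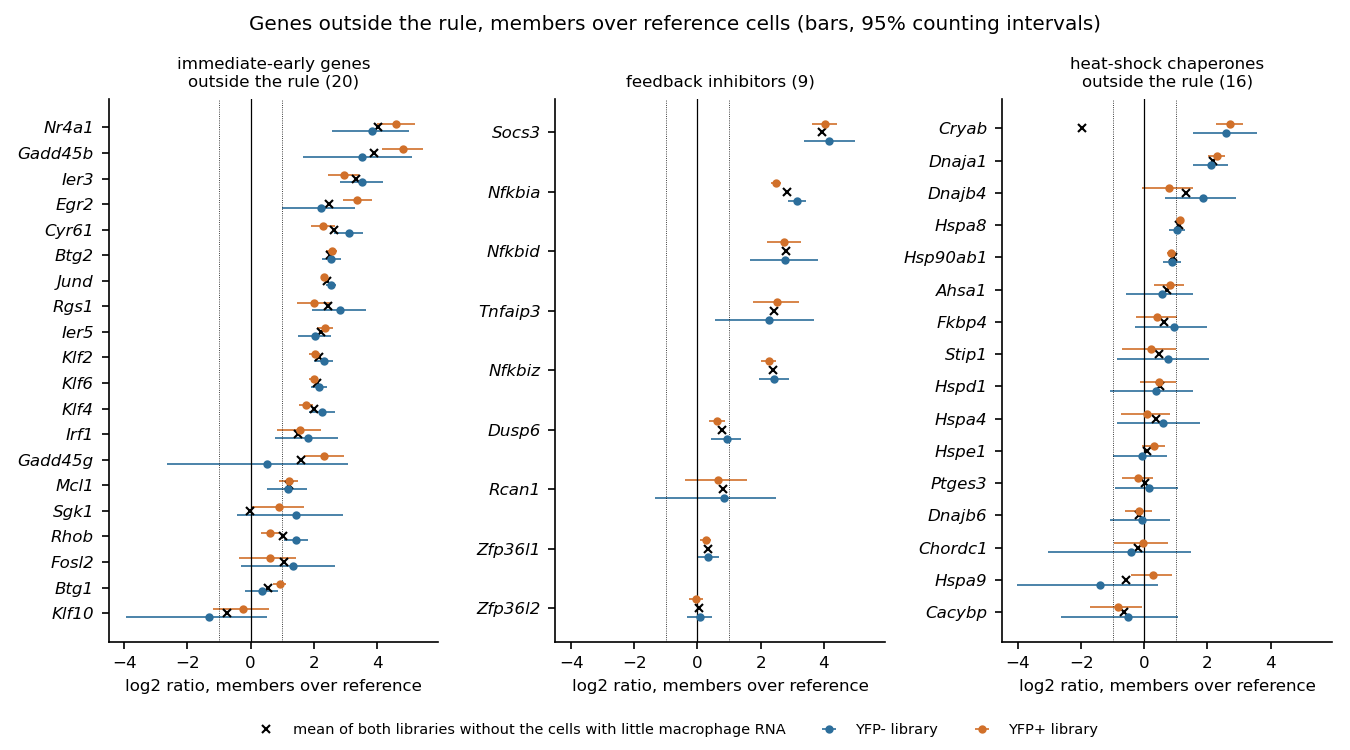
Log2 ratio of Fos/Jun-high (members) over reference cells (x axis) for each gene at 20 CPM or more on 3 lists, by library, with exact conditional 95% intervals as bars and dotted lines at a 2-fold difference. Crosses give the mean of both libraries without the cells low in macrophage RNA. *Cryab*, left with 0 and 2 UMIs there, too few for a ratio, is the gene whose cross falls on the other side of 0. Of the 20 immediate-early genes, 14 exceed 2-fold in both libraries.

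Chaperones outside the rule had lower ratios. Of 24, 16 passed 20 CPM, with 3 raised, 0 lowered and a median log2 ratio of 0.45. *Dnaja1*, another HSP40, was at 338 and 417 CPM, against 77.8 and 84.5 (log2 ratio 2.11 and 2.29), and *Hspa8*, the constitutive HSP70, at 1484 and 1718, against 724 and 782 (1.04 and 1.14). The cytosolic HSP90 gene *Hsp90ab1* came close to 2-fold, at a log2 ratio of 0.87 and 0.86. *Cryab*, the third gene raised, was carried by the cells low in macrophage RNA, which held 12 of 12 and 72 of 74 of its UMIs. The 0 and 2 UMIs left without them are too few for a ratio. The mitochondrial chaperones *Hspd1* (0.36 and 0.45) and *Hspe1* (-0.08 and 0.29) had intervals that include 0 in both libraries.

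*Ubb*, which encodes polyubiquitin, was at 2864 and 3041 CPM, against 1149 and 1325 (log2 ratio 1.32 and 1.20). *Rps27a*, a ribosomal protein gene fused to ubiquitin, had a log2 ratio of -0.31 and -0.20. Of the ribosomal protein genes 71 of 80 were below 0 in both libraries, beside 1880 of all 5525 genes tested, with 0 at 2-fold and a median of -0.18, beside -0.07.

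Of 11 genes of oxidative and metal stress, 7 passed 20 CPM and 2 were raised, *Mt1* and *Mt2*, which encode metallothioneins that bind zinc and copper. *Mt1* was at 3569 CPM in YFP- and 2453 in YFP+ Fos/Jun-high cells, against 1071 and 894, a log2 ratio of 1.74 and 1.46 that became 1.55 and 1.03 without those cells. *Mt2* had 3.21 and 2.72 on all cells and 2.02 and 1.38 without those. *Mt3*, which is not on this list, was also raised, at 3.40 and 2.27 on all cells. Without those cells it had 0 and 1 UMIs, too few for a ratio. *Hmox1*, which encodes heme oxygenase, was at 629 CPM against 155 in the YFP- library (2.01, CI 1.61 to 2.40) and at 281 against 142 in the YFP+ library (0.98, CI 0.68 to 1.26).

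Of 13 NF-kB factors and surface genes, 10 passed 20 CPM and 2 were raised, *Icam1*, an adhesion molecule (2.64 and 2.50), and *Tlr2*, a receptor for bacterial lipoproteins (1.20, CI -0.04 to 2.26, and 1.29). *Icam1* was at 15.8 and 13.8 CPM in the reference and passed only through the Fos/Jun-high cells. *Cd14* was at 714 and 993 CPM, against 404 and 474 (0.82 and 1.07). Of 26 cytokines and mediators, 8 passed 20 CPM, with a median log2 ratio of -0.46. *Tnf* was the gene raised, on 4 and 27 UMIs, at 1.56 (CI -0.33 to 3.06) and 2.30 (CI 1.61 to 2.94). With 12.1 and 12.6 CPM in the reference, *Tnf* too passed only through the Fos/Jun-high cells. The chemokines *Ccl6* (-0.44 and -0.54), *Ccl9* (-0.61 and -0.29) and *Ccl12* (-0.998 and -0.65) were lower, each with intervals under 0 in both libraries. The chemokine *Ccl2* went the other way, at 122 against 83.0 CPM (0.55, CI -0.38 to 1.36) and 378 against 91.6 (2.03, CI 1.76 to 2.30). *Il6* and *Il12b* had 0 UMIs in Fos/Jun-high cells of both libraries.

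Genes of macrophage identity were close to the reference. Of the 9 genes of resident macrophages and 7 of MHC class II, 0 differed 2-fold in both libraries, and their median log2 ratios were -0.06 and 0.04. *Mrc1*, which encodes the mannose receptor, was at 995 CPM in YFP- Fos/Jun-high cells and 996 in the reference, and at 820 and 892 in the YFP+ library. *Pf4* had the lowest ratios of the resident list, -0.65 (CI -0.81 to -0.49) and -0.60 (CI -0.69 to -0.51). Among the macrophage markers, *Apoe*, which encodes a lipid carrier, was at 0.57 and 0.19.

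Of 11 monocyte-like genes, 8 passed 20 CPM, 7 of them below 0 in both libraries, beside 1880 of all 5525 genes tested, and 0 were called. *Vim*, the eighth, was at 207 against 229 CPM in the YFP- and 371 against 279 in the YFP+ library. *Ccr2*, the chemokine receptor of inflammatory monocytes, had 0 UMIs in the 50 YFP- Fos/Jun-high cells, where the reference was at 139 CPM, so that it was at least 4.94-fold lower if 3 counts over the group (28.2 CPM) are taken as the floor. In the YFP+ library it was at 205 against 317 CPM (-0.63, CI -0.96 to -0.31). *Lgals3* likewise had 0 UMIs in the YFP- cells, against 65.7 CPM, which is at least 2.33-fold lower, and 63.5 against 84.3 CPM in the YFP+ library. *Crip1* was at 761 against 1825 CPM and 1657 against 2356 (-1.26 and -0.51).

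*Retnla*, which encodes the secreted protein RELM-alpha, was at 93.9 against 672 CPM in the YFP- library (-2.83, CI -3.87 to -1.95) and at 666 against 1152 in the YFP+ library (-0.79, CI -0.97 to -0.61). The interferon-inducible *Ifi27l2a*, at -1.24 and -0.999, missed 2-fold in the YFP+ library, whereas *Ly6e*, at -1.04 and -1.29 on 10 and 27 UMIs, was lowered. *Ly6e* stayed just under 2-fold, at -0.98, in the YFP- library without the cells low in macrophage RNA. The linker histone genes *Hist1h1e* (-1.60 and -2.35) and *Hist1h1c* (-1.54 and -1.38) rested on 3 UMIs each in the YFP- cells, and *Hist1h1c* was at -1.50 and -2.06 without the cells low in macrophage RNA. *Ccnd1*, which encodes cyclin D1, was at -1.88 and -0.92 on 3 and 23 UMIs. Of the Cd209-high list, 6 of 11 genes passed 20 CPM and *Ly6e* was the 1 lowered (median -0.41). No gene was called among 5 of 13 interferon-stimulated genes (-0.20), 4 of 13 cell cycle genes (-0.29), 12 of 13 mitochondrial transcripts (-0.06) and both nuclear long RNAs (0.32) that passed 20 CPM.

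Transcripts without a known role were also among the 20 raised most. *Gm26825*, a long noncoding RNA at chr5:5781530-5783636 whose nearest coding gene is *Steap1*, 32204 bases away, was at 310 and 290 CPM, against 21.5 and 34.3 (3.79 and 3.05). *Gm26532*, at chr8:84208920-84209609, overlaps the microRNA gene *Mir24-2* on its own strand and was at 3.49 and 2.46. *Gm12346*, a transcribed pseudogene at chr11:77293444-77295898, lies within *Ssh2* on the same strand, so that its reads and those of *Ssh2* may not be told apart.

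The groups were then placed on the whole range of the 14-gene share, among cells with fewer than 3 cytokine UMIs. In the YFP+ library the 32 immediate-early genes outside the rule summed to 1970 CPM in cells under 0.5%, 3009 at 0.5 to 1%, 4977 at 1 to 2%, 8122 at 2 to 4% and 13094 at 4% or more. The YFP- library went from 2070 over 3913, 5529 and 10860 to 14773 CPM in the same bins. Chaperones outside the rule stayed level up to 1%, at 2328 and 2297 CPM in the YFP+ library, and then reached 2741, 4200 and 5788. Feedback inhibitors increased from bin to bin in both libraries, from 1568 to 5755 CPM in the YFP+ library. Macrophage markers stayed between 51558 and 62676 CPM in the YFP+ library. The highest bin held 8 YFP- and 45 YFP+ cells.

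**Figure D5:**
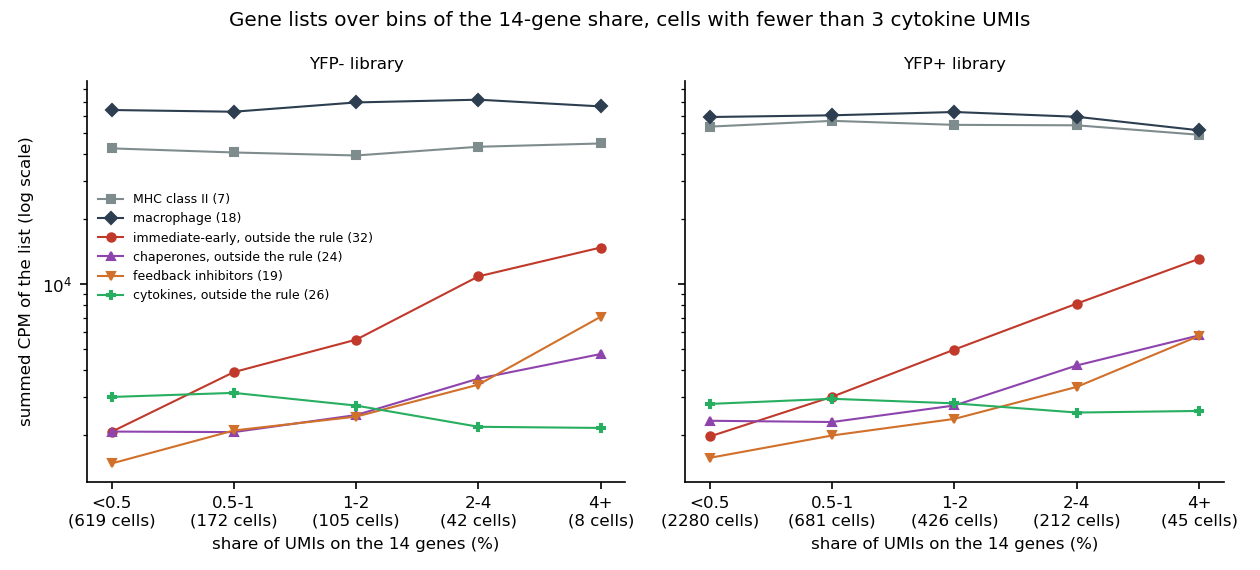
Summed CPM of 6 gene lists (y axis, logarithmic) over bins of the share of UMIs on the 14 genes (x axis, with the number of cells in each bin) in cells with fewer than 3 cytokine UMIs. Immediate-early genes outside the rule climb in every bin, from 2070 to 14773 CPM in the YFP- library, while macrophage and MHC class II lists run level.

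Fos/Jun-high cells with a heat-shock share of at least 0.5% were compared with those under it, 26 against 24 cells in the YFP- and 112 against 145 in the YFP+ library. Depth differed between these groups, with a median of 2916 against 1436 UMIs and 1463.5 against 1332, and 11 of the 12 cells low in macrophage RNA fell in the groups under 0.5%. Over all 5512 genes, 81 (1.47%) were raised and 236 (4.28%) lowered. The YFP- groups held 67576 and 38909 UMIs in all, so that a gene near 20 CPM had very few UMIs there. Single calls of this comparison are therefore poorly measured, and how many have intervals without 0 is not given here. Of the immediate-early list 0 of 20 genes were raised (median log2 ratio 0.19), and of the chaperones outside the rule 0 of 16 (median 0.50). *Jund* was at 4188 against 3932 CPM in the YFP- and 2318 against 2328 in the YFP+ library, while *Ier3* was at 429 against 25.7 (4.01, CI 1.46 to 8.07) and 180 against 97.4 (0.88, CI 0.06 to 1.72). *Hspa8* was at 1776 against 977 and 2231 against 1301 CPM (log2 ratio 0.86, CI 0.33 to 1.43, and 0.78, CI 0.56 to 0.998), and *Hsp90ab1* at 1273 against 720 and 1551 against 836. *Hspa9*, the mitochondrial HSP70, was at -0.76 and -1.09, on 1 and 6 UMIs against 1 and 16, with intervals that include 0.

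Of the NF-kB factors and surface genes 3 of 10 were raised, and of the feedback inhibitors 0 of 9 (median 0.70). *Nfkbia* was at 2087 against 360 CPM (2.53, CI 1.74 to 3.44) in the YFP- and at 1485 against 850 (0.81, CI 0.53 to 1.079) in the YFP+ library. *Cd83*, a surface protein of activated myeloid cells, was at 488 against 51.4 and 501 against 305. *Icam1* (2.48 and 1.75), *Plek* (1.36 and 1.73) and *Rel* (1.17 and 1.11) were raised, but on 10 against 1, 9 against 2 and 4 against 1 UMIs in the YFP- library, where all 3 intervals include 0. Also raised was *Hmox1* (2.08 and 1.09). *Rela*, an NF-kB subunit on 2 and 6 against 2 and 8 UMIs, was at -0.78 and -0.11. The lowered genes with the lowest ratios included *Mt3* and *Cryab*, whose UMIs lay mostly in the cells low in macrophage RNA.

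The closest cells were the 211 that met the same 2% limit but had 3 or more cytokine UMIs, 27 in the YFP- and 184 in the YFP+ library. They were deeper, with a median of 3199 and 2228.5 UMIs, so some ratios are also given after thinning to 500 UMIs. Of 5349 genes, 78 (1.46%) were raised in Fos/Jun-high over these cytokine-positive cells and 40 (0.748%) lowered. All 5 Schwann cell genes at 20 CPM were among the raised, and 0 of the 211 cytokine-positive cells had under 1% on the macrophage markers. Against the reference, which both comparisons share, 85 of 5379 genes (1.58%) were raised and 66 (1.23%) lowered in cytokine-positive cells. There *Nfkbia* was at 3.55 and 3.504 and *Socs3* at 4.52 and 4.15, beside 3.15 and 2.47 and 4.17 and 4.02 in Fos/Jun-high cells. Set directly against each other, the immediate-early list had a median log2 ratio of 0.09. *Jund* differed by 0.22 (CI 0.01 to 0.44) and -0.01 (CI -0.14 to 0.12), and *Socs3* by -0.35 (CI -1.17 to 0.46) and -0.13 (CI -0.50 to 0.23).

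Of the genes of the rule, *Atf3* was at 592 against 1494 CPM (-1.33, CI -1.79 to -0.89) and 603 against 1199 (-0.99, CI -1.22 to -0.77), and *Hspa1a* was lower by less (-0.19, CI -0.37 to -0.00, and -0.46, CI -0.55 to -0.36). Among genes outside the rule, *Ccl2*, a chemokine that attracts monocytes, was at 122 against 475 CPM and 378 against 980 (-1.95, CI -2.97 to -1.03, and -1.37, CI -1.65 to -1.10), and after thinning at -0.88 and -1.35. *Nfkbia* (-0.40 and -1.03), *Nfkbiz* (-0.60 and -0.85), *Cd14* (-0.77 and -0.48) and *Cd83* (-1.30 and -0.66) were lower with intervals under 0 in both libraries. After thinning these were at -1.02 and -0.98, -0.40 and -0.83, -0.23 and -0.42, and -1.88 and -0.81. *Ccl7* was at -1.50 in the YFP+ library and -1.51 after thinning, and had 1 against 9 UMIs in the YFP- library, too few for a thinned ratio.

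Cells of the 2 origins were compared last, with 1 library each, so that origin and library cannot be told apart. Of 5557 genes, 111 (2%) were at least 2-fold higher in YFP+ Fos/Jun-high cells with an interval beyond 0, and 261 (4.7%) in YFP- ones. Of the 261, 96 were also 2-fold higher in the YFP- reference cells, and 37 carry the symbol of a pseudogene. Of the 111, 11 were 2-fold higher in the YFP+ reference. Among the 14 genes, *Fos* was alike in both (log2 ratio of YFP+ over YFP- -0.04, CI -0.16 to 0.07), while *Jun* was lower in YFP+ cells (-0.35, CI -0.48 to -0.23), as were *Hspa1a* (-0.26, CI -0.41 to -0.11) and *Hsp90aa1* (-0.84, CI -1.20 to -0.46). In the reference cells *Hspa1a* went the other way (0.95, CI 0.72 to 1.19), while *Fos* differed by -0.05, *Jun* by -0.14 and *Hsp90aa1* by 0.01.

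*Ccl2* was higher in YFP+ Fos/Jun-high cells (378 against 122 CPM, log2 ratio 1.62, CI 0.81 to 2.56), where the reference cells of the 2 libraries differed by 0.14. *Retnla* differed by 2.81 (CI 1.92 to 3.87) and by 0.78 in the reference, and *Crip1* by 1.12 and 0.37. *Hmox1* (-1.16), *Rhob* (-1.16), *Cyr61* (-1.48) and *Ier3* (-1.06) were higher in YFP- Fos/Jun-high cells, with differences of -0.13, -0.34, -0.65 and -0.48 in the reference. Whether the difference between the libraries itself differed between Fos/Jun-high and reference cells was not tested.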

How the data were processed

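Sciatic nerve macrophages from 19 pooled mice were measured as 2 libraries, YFP- and YFP+. The authors deposited raw counts of UMIs per gene and barcode, not normalized and not filtered for cells, from 10x Chromium v2 reads aligned to GRCm38. The submitters' processing notes name Cell Ranger 3.0.2 and Seurat 2.2.0, and the paper's methods name another Cell Ranger release. The annotation release is not given in the sources used here. The deposited genes and barcodes tables hold names only.

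Totals were 3653688 and 9365598 UMIs. Barcodes with at least 500 UMIs and 200 genes were called cells (1045 and 4053, holding 66.2% and 72.0% of UMIs). Doublets were kept. Counts were summed over cells of a class and given as CPM with exact Poisson intervals. Log2 ratios used a pseudocount of 1 CPM and exact conditional binomial intervals, and shares used Clopper-Pearson intervals, all at 95%. The floor, 3 counts, was 28.2 and 7.32 CPM in Fos/Jun-high cells. Genes named were those of the rule, the 20 raised and 10 lowered most at 50 CPM or more, the most abundant and most changed of each of 18 lists, and others chosen after their values were seen. Cells, lists and named genes were chosen with earlier results of these data known. The steps were tested on simulated data, in which unchanged genes were called lowered at a rate close to that seen here and were not called raised. Python 3.11.15, numpy 2.4.6, scipy 1.17.1, pandas 2.3.3 and matplotlib 3.10.9 were used. Results for some genes are not reported here.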

Additional observations from a re-analysis of the deposited data

Results flagged for a closer look

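*Ccl7*, a chemokine for monocytes, had ratios of opposite sign in the 2 libraries. Its log2 ratio of Fos/Jun-high over reference cells was -3.06 (CI -6.14 to -0.68) in the YFP- library, on 1 UMI in the 50 cells (9.39 against 85.6 CPM), and 0.55 (CI 0.07 to 1.002) in the YFP+ library (107 against 72.9 CPM). The YFP- level lies under the floor of 28.2 CPM. When the groups were drawn anew after thinning to 500 UMIs, they held 80 YFP- and 376 YFP+ Fos/Jun-high cells. In these other sets of cells the ratio was above 0 in both libraries, at 1.44 and 2.05. *H2-Aa*, an MHC class II chain, was at 0.14 (CI 0.03 to 0.24) in the YFP- and -0.16 (CI -0.22 to -0.11) in the YFP+ library. The difference between the libraries was not tested for either gene.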

How the results depend on the processing

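No paired analysis was possible because each origin is 1 library and no test was made. The share of Fos/Jun-high cells was 2.58% and 2.71% (YFP- and YFP+) with a limit of 3% on the 14 genes, 7.66% and 9.28% after thinning to 500 UMIs, and 7.37% and 10.9% without the cytokine limit. With the 9 immediate-early genes alone it was 4.02% and 4.61%. The 83 raised genes became 132 with a limit of 3%, 54 at a mean of 50 CPM and 317 without a filter on low levels. The 19 lowered genes became 34 with 1000 UMIs per cell, 66 after thinning, 101 with a limit of 3%, 35 with the immediate-early genes alone, 30 with cells weighted equally, 36 after subtraction of 10% free RNA, 3 at 50 CPM and 1428 without a filter. *Ccl7*, at a mean log2 ratio under 0, turned to 1.75 after thinning and 0.39 without the cytokine limit. Both settings also changed which cells were counted as Fos/Jun-high. Without the cells low in macrophage RNA, the computed mean was -1.97 for *Cryab* and -1.74 for *Mt3*. Both genes had 0 UMIs in the YFP- Fos/Jun-high cells left, where the pseudocount sets the ratio. In the YFP+ ones *Cryab* had 2 UMIs and *Mt3* had 1. These are too few for a ratio, so the sign of the 2 means cannot be read. The cause of the other changes was not tested. Of the alternatives, 14 were planned, and 2, the removal of cells low in macrophage RNA among them, were chosen after seeing the data. Of 104 named genes, 78 kept their value within the counting interval after thinning and 99 without the cells low in macrophage RNA. Depth limits the YFP- cells, 106485 UMIs in all, where a gene under 28.2 CPM cannot be told from 0.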
